A study of Arabidopsis thaliana with 3 samples.

Results

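The 10 genes described here carry the core of abscisic acid (ABA) signalling in Arabidopsis thaliana: the protein phosphatases ABI1, ABI2, HAB1, HAB2 and PP2CA, the protein kinases SnRK2.2, SnRK2.3 and OST1, and the transcription factors ABI4 and ABI5. They were chosen by name, not by a measured value, though with earlier results of these data known, out of 27444 nuclear protein-coding genes. Each was taken as its annotated span with 500 bp added on each side. Every peak and every summit (the highest point of a peak) of BDH1-FLAG that met one of these loci was counted. BDH1 is a BCL-domain homolog protein that the title of the series ties to SWI/SNF, a chromatin remodelling complex. Its binding was mapped by ChIP-seq, in which chromatin fragments pulled down with an anti-FLAG antibody are sequenced, in inflorescences (flowering shoots) of soil-grown plants kept under a long-day light cycle. The 2 BDH1-FLAG samples came from bdh1-1 mutant plants carrying BDH1 fused to FLAG, and 1 further sample came from wild-type plants without a tagged protein. Values of that wild-type sample were not used here, so no comparison between genotypes was made, and the part of the signal that the antibody gives without the tag was not tested. The promoter of the transgene, the number of transgenic lines and the relation between the replicates are not given in the sources used here.

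ABA is the hormone by which plants respond to drought and keep seeds dormant. It binds receptors of the PYR/PYL/RCAR family, the hormone-bound receptors block the clade A phosphatases (PP2Cs), and the SnRK2 kinases that these phosphatases hold inactive are released to phosphorylate bZIP transcription factors such as ABI5. As background, the SWI/SNF ATPase BRAHMA is known in Arabidopsis to hold down ABI5 expression, and OST1 and the phosphatases HAB1 and PP2CA have been described as acting on the BRAHMA protein itself.

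BDH1-FLAG peaks lay at 9 of the 10 genes in both lists, at all 5 phosphatase genes, all 3 kinase genes and ABI5, while ABI4 had no peak in either list. By the same rule 52.1% of all protein-coding genes carried one in both lists, 55.6% in replicate 1 and 56.2% in replicate 2. A summit within the locus was likewise present in both lists at 9 of the 10 genes, against 48.6% of all protein-coding genes. Among the 15247 protein-coding genes whose length lay between that of the shortest gene, ABI4 with 1339 bp, and the longest, HAB1 with 3380 bp, the share was 57.9%. Peaks were tallest at PP2CA, SnRK2.3 and ABI1. These 3 genes had their tallest peak in the top 10% of both lists by fold enrichment, the authors' linear ratio of signal over a background that is not given in the sources used here, as did 4.83% of all protein-coding genes and 5.56% of those within the length range. The fold enrichment at the top 10% began at 3.04 in replicate 1 and 2.93 in replicate 2, and this limit was set after the values had been seen. All these shares describe the lists, and no test was made of the difference between the 10 genes and other genes.

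The lists held 16653 peaks in replicate 1 and 16413 in replicate 2, with a median fold enrichment of 2.25 and 2.23 and a median width of 452 and 466 bp. At the 10 loci each list had 14 peaks, of which 11 in replicate 1 and 13 in replicate 2 had their summit inside the locus. Read depth is unknown for both lists. Peak positions follow TAIR10, the build named in the submitters' processing notes. The gene table used here gives no strand and no exons, so where a gene starts is unknown here. The boundaries of a gene are therefore called the low-coordinate and the high-coordinate end, and exons, introns and untranslated regions were not assigned.

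At the 9 genes with peaks, the summit of the tallest peak lay inside the gene in both lists. It was between 177 and 821 bp from the nearer end. A tallest summit inside the gene in both lists was found at 34.3% of all protein-coding genes, or 65.8% of those that carried a peak in both. For the other genes with an inside summit the median distance to the nearer end was 272 bp in each list, with quartiles of 195 and 388 bp in replicate 1 and of 196 and 392 bp in replicate 2. The low-coordinate end was the nearer one at 5 genes (ABI2, HAB1, HAB2, SnRK2.3 and OST1) and the high-coordinate end at 4 (ABI1, PP2CA, SnRK2.2 and ABI5). The nearer end was the same in both lists at each of these 9 genes. No peak covered both ends of its gene. Each end was covered in both lists, by the same peak or by separate peaks, at none of the 10 genes and at 1.21% of all protein-coding genes.

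**Figure D1:**
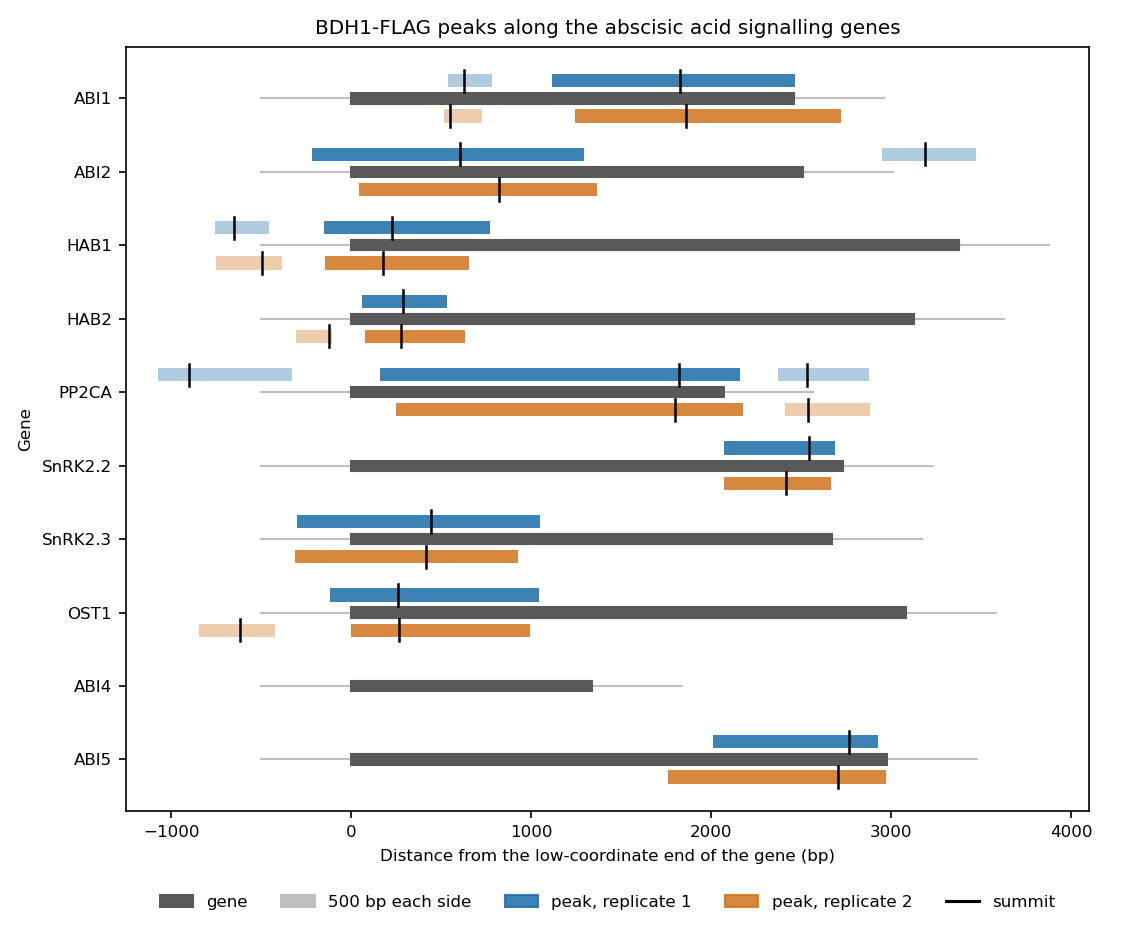
Peaks at each gene in replicate 1 (blue, above the gene) and replicate 2 (orange, below), drawn by distance in bp from the low-coordinate end of the gene (dark bar; thin line, 500 bp on each side). Solid bars are the tallest peak at the gene, pale bars the others, and black ticks the summits, which for the tallest peaks lie inside the gene 177 to 821 bp from an end in all 9 genes with peaks.

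PP2CA, a clade A phosphatase gene (AT3G11410, 2069 bp), had the tallest peak of the 10 genes in both lists. On chromosome 3 the peak of replicate 1 ran from 3583944 to 3585940, 4.93-fold enriched at a −log10 q of 43.1, and ranked 9 in its list. In replicate 2 it ran over positions 3584030 to 3585961, 4.00-fold enriched at a −log10 q of 28, and ranked 42. It was also the broadest, at 1997 and 1932 bp, and covered 92.2% and 88.0% of the gene. The summits, at positions 3585602 and 3585582, were 20 bp apart and lay 248 and 268 bp inside the high-coordinate end. A second, low peak stood just past that end in both lists, with a fold enrichment of 1.65 and 1.58 and its summit 465 and 471 bp outside the gene. A further peak, 327 bp from the low-coordinate end, reached the locus in replicate 1 only. The nearest peak on that side in replicate 2 ended 550 bp from the gene, just beyond the 500 bp limit.

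ABI1 (AT4G26080, 2462 bp), whose dominant mutant made plants insensitive to ABA and gave the gene its name, had the next tallest phosphatase peak. It spanned positions 13221033 to 13222380 of chromosome 4 in replicate 1, 4.00-fold enriched (rank 158), and positions 13221158 to 13222635 in replicate 2, 3.04-fold enriched (rank 1186). The summits, at 13221740 and 13221778, were 38 bp apart, 636 and 598 bp inside the high-coordinate end, which is farther from an end than at most of the other genes. The peak covered that end in both lists, reaching 4 bp past it in replicate 1 and 259 bp in replicate 2. A separate low peak lay in the other part of the gene in both lists, with a fold enrichment of 1.89 and 2.03, ranks of 13969 and 11250, and its summit 625 and 547 bp from the low-coordinate end. ABI1 was the only one of the 10 genes to have a pair of separate peaks with both summits inside the gene in both lists. At its low-coordinate end the annotation of ABI1 overlaps that of MEK1 (AT4G26070), a mitogen-activated protein kinase kinase gene, and no peak at ABI1 touched MEK1.

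ABI2 (AT5G57050, 2510 bp), the closest relative of ABI1, had its peak on chromosome 5, from 23086903 to 23088415 in replicate 1 and from 23087163 to 23088489 in replicate 2. The fold enrichment was 3.43 at rank 651 in replicate 1, inside the top 10% of that list, and 2.76 at rank 2578 in replicate 2, outside it. ABI2 was thus a 4th gene in the top 10% of replicate 1 alone. Its summits, 606 and 821 bp inside the low-coordinate end, were 215 bp apart, the widest gap among the 9 genes. The peak reached 219 bp past that end in replicate 1 but began inside the gene in replicate 2. A further peak of replicate 1, with a fold enrichment of 1.99, came within 438 bp of the other end of ABI2 and had its summit in the neighbouring gene AT5G57060. In replicate 2 the corresponding peak began 719 bp from ABI2 and was outside the locus.

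HAB1 and HAB2, a pair of related phosphatase genes, had lower and narrower peaks than the other 3 phosphatase genes in both lists, though at HAB2 the height in replicate 2 came close to that at ABI2. At HAB1 (AT1G72770, 3380 bp) the peak ran over positions 27389797 to 27390717 of chromosome 1 in replicate 1 and 27389800 to 27390604 in replicate 2. Its fold enrichment was 2.25 in replicate 1, where 49.6% of the peaks of the list were lower, and 2.44 in replicate 2, where 66.7% were lower. The summits were 50 bp apart, 227 and 177 bp inside the low-coordinate end, and the peak covered that end in both lists. A low peak stood apart from the gene on the same side in both lists, with a fold enrichment of 1.83 and 1.87. Its summit fell 653 bp from the gene in replicate 1, outside the 500 bp limit, and 496 bp from it in replicate 2, just inside. At HAB2 (AT1G17550, 3129 bp) the peak, also on chromosome 1, ran over positions 6034330 to 6034804 in replicate 1 and 6034347 to 6034901 in replicate 2, all inside the gene. The fold enrichment was 2.5 at rank 5392 in replicate 1 and 2.75 at rank 2658 in replicate 2. The summits, 10 bp apart, lay 285 and 275 bp inside the low-coordinate end. HAB2 had a second peak in replicate 2 only, 202 bp wide with a fold enrichment of 1.67, at 106 bp outside the same end. Both genes thus carried their peak over a small part of their length, from 15.2% to 22.8%, where the peaks of ABI1, ABI2 and PP2CA covered 49.5% to 92.2%.

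**Figure D2:**
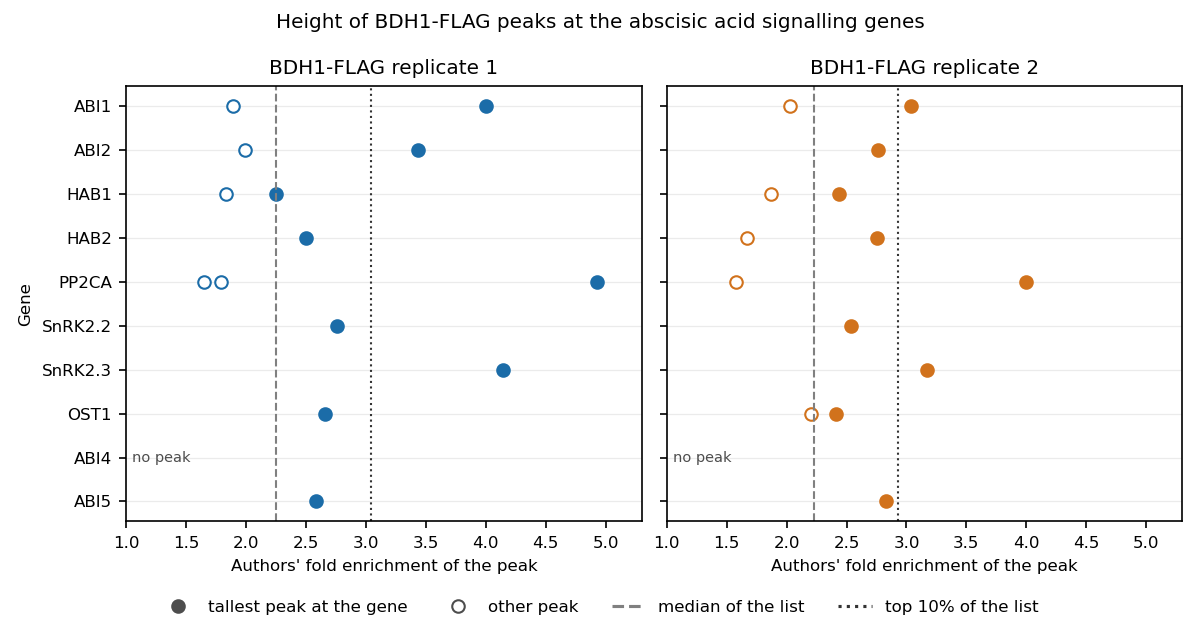
Authors' fold enrichment of each peak at each gene in replicate 1 (left) and replicate 2 (right); filled points are the tallest peak at the gene, open points the others, the dashed line is the median of the list and the dotted line the start of its top 10%. PP2CA, SnRK2.3 and ABI1 lie beyond the dotted line in both lists, ABI2 in replicate 1 only, and ABI4 has no peak.

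The SnRK2 kinases act one step below the phosphatases, and the 3 kinases described here are the ones most strongly switched on by ABA. SnRK2.3 (AT5G66880, 2670 bp) had the tallest peak of the 3. It spanned positions 26709999 to 26711350 of chromosome 5 in replicate 1, 4.14-fold enriched at a −log10 q of 29.0 (rank 109), and positions 26709989 to 26711229 in replicate 2, 3.17-fold enriched at a −log10 q of 15.7 (rank 801). The summits, at 26710747 and 26710716, were 31 bp apart and 445 and 414 bp inside the low-coordinate end. The peak reached 303 and 313 bp past that end and was the only peak at the locus. It also overlapped AT5G09785, a long non-coding RNA gene, but the summits lay outside that gene. The annotation of SnRK2.3 overlaps that of the protein-coding gene AT5G66890, which the peak did not touch in either list.

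SnRK2.2 (AT3G50500, 2731 bp), a close relative of SnRK2.3 with overlapping functions in seeds and seedlings, had a narrower and lower peak. It lay on chromosome 3, from 18743515 to 18744132 in replicate 1, 2.76-fold enriched (rank 3125), and from 18743513 to 18744108 in replicate 2, 2.54-fold enriched (rank 4434). It was 618 and 596 bp wide, against 1352 and 1241 bp at SnRK2.3, and stayed inside the gene in both lists. The summits were 126 bp apart, 186 and 312 bp from the high-coordinate end. No other peak came near, and the next one stood 8997 bp away in replicate 1 and 3803 bp away in replicate 2.

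OST1 (AT4G33950, 3081 bp), the kinase through which ABA closes the stomata, had its peak on chromosome 4, from 16271625 to 16272788 in replicate 1 and from 16271742 to 16272738 in replicate 2. The fold enrichment was 2.66 at rank 3835 and 2.41 at rank 5889. The summits, at 16272002 and 16272009, were 7 bp apart, the closest among the 9 genes, and lay 257 and 264 bp inside the low-coordinate end. The peak covered that end in both lists, by 120 bp in replicate 1 and 3 bp in replicate 2. In replicate 2 a second peak, with a fold enrichment of 2.2, came within 422 bp of OST1 and also touched the neighbouring gene AT4G33945.

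Of the 2 transcription factor genes, ABI5 had a peak and ABI4 did not. ABI5 (AT2G36270, 2978 bp), a bZIP factor that arrests growth of the germinating seedling, had its only peak on chromosome 2, from 15206671 to 15207588 in replicate 1 and from 15206422 to 15207629 in replicate 2. The fold enrichment was 2.58, with a −log10 q of 8.63 and rank 4549, in replicate 1 and 2.83, with a −log10 q of 10.9 and rank 2164, in replicate 2. The summits, at 15207423 and 15207366, were 57 bp apart and 213 and 270 bp inside the high-coordinate end. The peak stopped short of that end in both lists and covered 30.8% and 40.6% of the gene. Its height placed it above 72.6% of the peaks of replicate 1 and 86.8% of those of replicate 2, below the top 10% in both. A peak of replicate 1 began 672 bp from ABI5, outside the locus, and overlapped the next genes, AT2G36280 and AT2G36290.

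ABI4 (AT2G40220), an AP2-type factor known from ABA and sugar responses of seeds, was the shortest of the 10 genes, at 1339 bp. The nearest peak ended 3668 bp away in replicate 1 and 3666 bp away in replicate 2, at the genes AT2G40200 and AT2G40205, so widening the locus to 1000 bp on each side did not reach one. Of the 7015 protein-coding genes no longer than ABI4, 27.6% had a peak in both lists. In the group of genes of like length, from 1146 to 1489 bp, it was 42.5%. Most genes of its length therefore lacked a peak in at least 1 list. The share with a peak in neither list, as at ABI4, was not computed. With read depth unknown, a weak signal at ABI4 cannot be told from none.

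**Figure D3:**
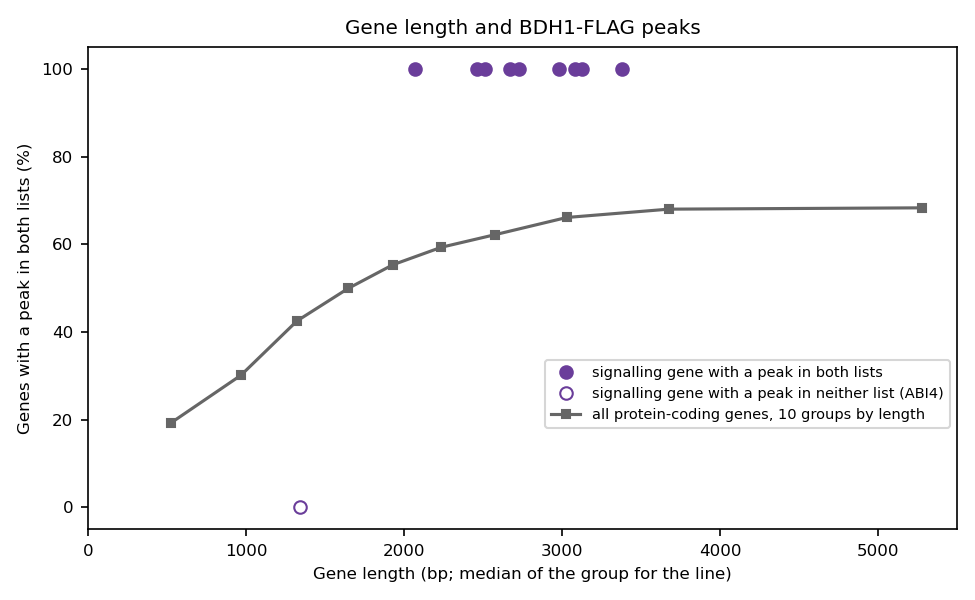
Filled points are the 9 signalling genes with a peak in both lists and the open point is ABI4, placed at 100% and 0% by gene length in bp; the line gives the percentage of genes with a peak in both lists for all protein-coding genes in 10 groups of equal size by length. The share climbs from 19.3% in the shortest group to 68.3% in the longest, and the 9 genes fall where it is between 55.3% and 68.0%.

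The replicates placed the peaks close to each other. The summits of the tallest peaks were 7 to 215 bp apart at the 9 genes, and at 7 of them the gap was under the 71 bp that was the median gap to the nearest summit over the 14093 peaks of replicate 1 that overlapped a peak of replicate 2. The exceptions were SnRK2.2 and ABI2, and the upper quartile over those peaks was 146 bp. From 76.0% to 100% of the length of each tallest peak was shared with its partner in the other list. The order of the genes by height was led by PP2CA, SnRK2.3 and ABI1 in both lists. Below them the order differed. ABI2, SnRK2.2, OST1, ABI5, HAB2 and HAB1 followed in replicate 1, and ABI5, ABI2, HAB2, SnRK2.2, HAB1 and OST1 in replicate 2. In this lower part the replicates did not give the genes a common order.

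The genes with the tallest peaks also had wide ones, but wide peaks were not limited to them. PP2CA, SnRK2.3, ABI1 and ABI2 had their tallest peak among the widest 10% of both lists, as did 5.36% of all protein-coding genes and 6.26% of those within the length range. The widest 10%, a limit also set after the values had been seen, began at 1069 bp in replicate 1 and 1033 bp in replicate 2. OST1 passed it in replicate 1 only, at 1164 bp, and ABI5 in replicate 2 only, at 1208 bp. Both peaks were below the top 10% by fold enrichment, as was that of ABI2 in replicate 2. A peak over the low-coordinate end was found in both lists at HAB1, SnRK2.3 and OST1, against 7.86% of all protein-coding genes. A peak over the high-coordinate end was found in both at ABI1 and PP2CA, against 7.87% of all genes. Together these were 5 of the 10 genes with a peak over an end, against 14.9% of all protein-coding genes. With peaks limited to those whose −log10 q was 5 or more, 9 of the 10 genes were left with a peak in both lists, against 36.9% of all protein-coding genes. With a limit of 10 or more, ABI1, ABI2, PP2CA, SnRK2.2 and SnRK2.3 were still called in both lists, 5 of the 10 genes, against 11.8% of all protein-coding genes. HAB2, OST1 and ABI5 then had a peak in 1 list and HAB1 in none.

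The counts did not rest on peaks of neighbouring genes. When peaks were left out whose summit lay in another gene or, outside genes, nearer to another protein-coding gene, all 9 genes still had a peak in both lists, where the share over all protein-coding genes was 40.8%. Without the 500 bp added on each side, the 9 genes also kept theirs, with 45.4% over all protein-coding genes. An overlap of 100 bp or more in place of 1 bp gave the same 9 genes and 51.0% of all protein-coding genes. Of the 20 protein-coding genes that lay next to the 10 without overlapping them, 8 had a peak over their own span in both lists (40.0%, beside the 45.4% of all protein-coding genes). OST1 had such a neighbour on both sides, ABI1, ABI2, HAB1, PP2CA, ABI4 and ABI5 on the high-coordinate side only, and HAB2, SnRK2.2 and SnRK2.3 on neither.

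The rest of the pathway was read by the same rule in 50 further genes, listed by role. Both lists placed a peak at 31 of them, or 62.0%, beside 52.1% of all protein-coding genes. The 50 genes were picked by role and not drawn at random, and the difference was not tested. The count of 31 became 18 when −log10 q had to be 5 or more and 10 when it had to be 10 or more. The shares over all protein-coding genes were then 36.9% and 11.8%. With peaks left out whose summit lay in or nearer to another gene, 25 of the 50 genes kept a peak in both lists. The share over all protein-coding genes was then 40.8%. The ABA receptors, which stand above the phosphatases, had a peak in both lists at 8 of 14 genes, or 57.1%, a share near the 52.1% of all protein-coding genes. PYR1, PYL1, PYL4, PYL6 and PYL9, 5 of the 14, reached the top 10% of both lists, as did 4.83% of all protein-coding genes, and PYL1 had the best ranks, 214 in replicate 1 and 176 in replicate 2, where its peaks were 3.89-fold and 3.64-fold enriched. PYL7 had ranks of 2114 and 915. PYL5 and PYL8 differed between the lists, PYL5 with a fold enrichment of 2.09 in replicate 1 and 2.91 in replicate 2 and PYL8 with 2.46 and 1.71. PYL2, PYL10, PYL11, PYL12 and PYL13 had no peak in either list, and PYL3 had one in replicate 2 only, with its summit in a neighbouring gene. The 6 receptor genes without a peak in both lists ran from 495 to 1285 bp, and the 8 with one from 1289 to 2109 bp.

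The counts of the remaining lists are small and stand beside the same background, 52.1% of all protein-coding genes with a peak in both lists and 4.83% in the top 10% of both. Among the 4 other clade A phosphatase genes, HAI1 and HAI2 had a peak in both lists, each in the top 10% of both. HAI1 was the higher ranked, with a fold enrichment of 3.57 in replicate 1 and 3.15 in replicate 2. Of 7 other SnRK2 genes, 5 had a peak in both lists (71.4%) and none reached the top 10% of both, as is the case for most genes. The best ranked, SNRK2.1, had a fold enrichment of 2.58 and 2.67, but its summit lay in the neighbouring gene AT5G08580. The remaining transcription factor genes were ABI3, a B3 factor of seeds, and the bZIP genes ABF1 to ABF4, which are relatives of ABI5. ABF1, ABF2 and ABF4 had a peak in both lists, while ABI3 and ABF3 had none. ABF1 had a fold enrichment of 2.85 in replicate 1 and 2.12 in replicate 2, ABF4 had 2.23 and 1.87, and ABF2 had 1.95 and 2.42. The summits of ABF1 and ABF4 lay at the same time in long non-coding RNA genes annotated there, and those of ABF2 in its neighbour AT1G45248. The summits of ABF1 and ABF4 also lay inside ABF1 and ABF4 themselves. Among genes of ABA synthesis and breakdown, 9 of 13 (69.2%) carried a peak in each list, led by CYP707A3, an enzyme that degrades ABA, with a fold enrichment of 3.23 and 2.89. Genes that respond to ABA had one in 4 of 7 (57.1%), near the 52.1% of all protein-coding genes. With peaks left out whose summit lay in or nearer to another gene, 2 of the 7 kept one in both lists. The best ranked of these, RAB18, had a fold enrichment of 2.28 and 2.4 and its summit in the next gene, AT5G66410. When −log10 q had to be 5 or more, 2 of the 4 phosphatase genes kept a peak in both lists. So did 3 of the 7 SnRK2 genes and 0 of the 5 transcription factor genes. For synthesis and breakdown the count was 4 of 13, and for response 2 of 7. The share over all protein-coding genes was then 36.9%.

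**Figure D4:**
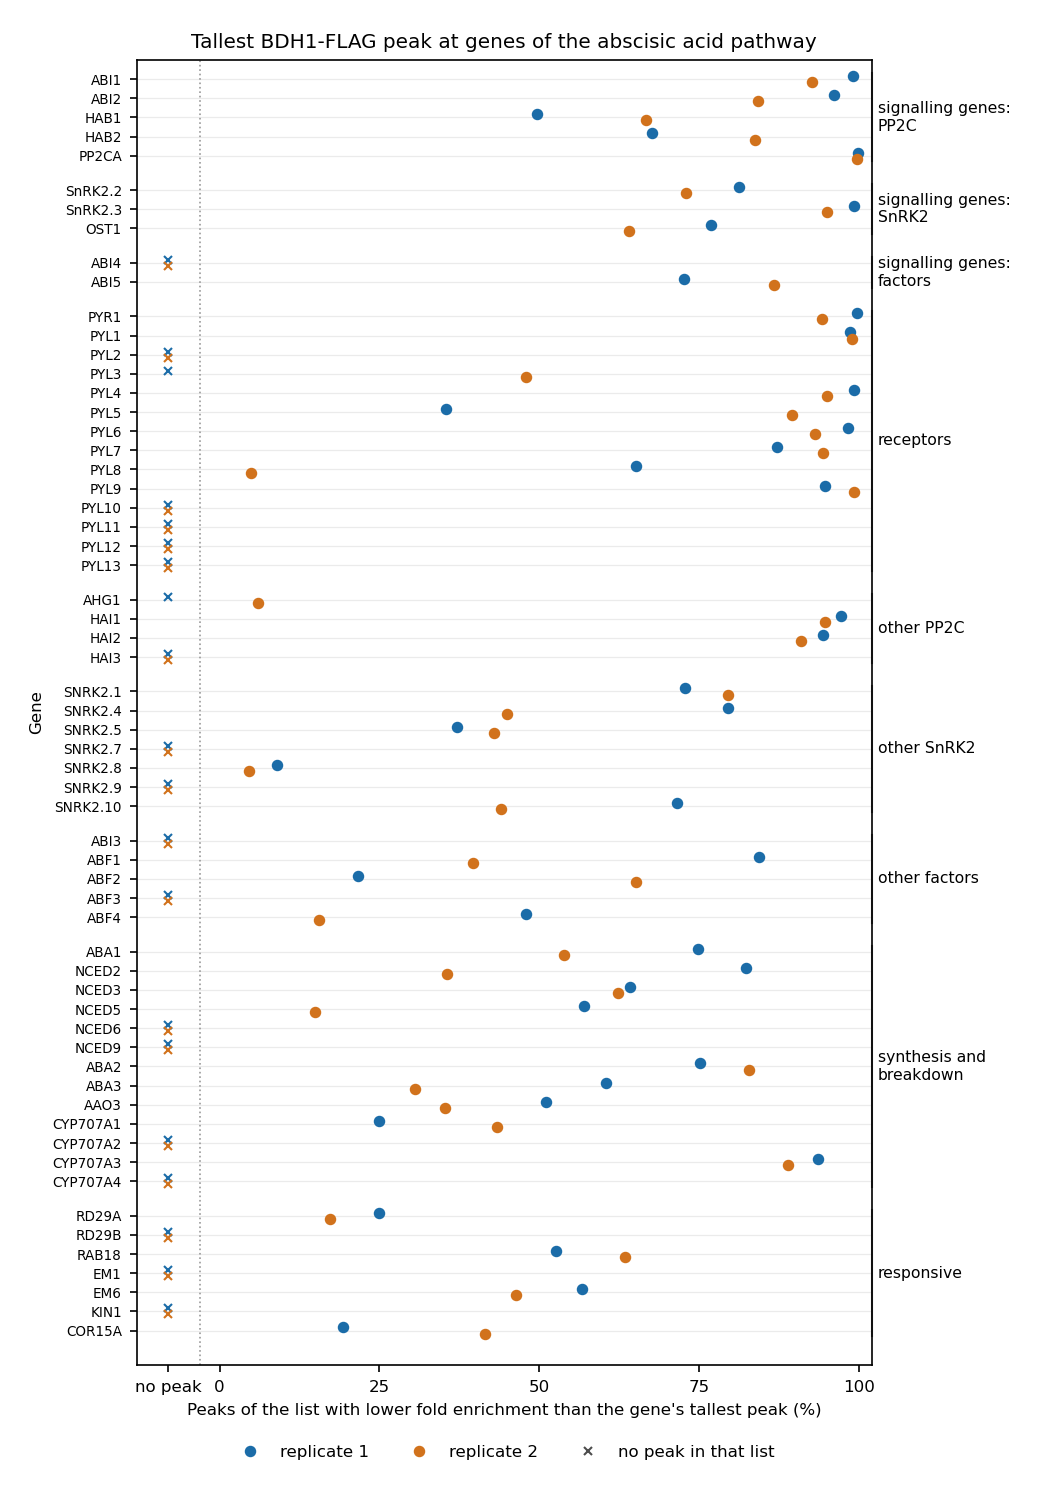
For each gene of the pathway, the percentage of peaks in the same list that have a lower fold enrichment than its tallest peak, in replicate 1 (blue) and replicate 2 (orange); crosses mark a list with no peak at the gene. The 10 signalling genes are on top, with ABI4 the only one of them without a peak, and the receptors split into 8 with a peak in both lists and 6 without.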

How the data were processed

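Peak lists of both BDH1-FLAG samples were used. The submitters' processing notes name Bowtie2 2.5.2, SAMtools, bedtools 2.31.1, MACS2 2.2.9.1 and the build TAIR10, with no role or setting; the control behind the peaks is not given in the sources used here. The authors deposited 1 list per sample, not pooled, with a linear ratio (fold enrichment), a −log10 of p and of q (lowest −log10 q 1.32 and 1.31) and a score per peak. The deposited score was not used. Fold and −log10 q served only to rank, filter or describe peaks within their own list, and no depth or counting error could be given.

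Genes came from a RefSeq table of assembly TAIR10.1, chromosomes 1 to 5, in which all 10 genes and the 50 pathway genes were found by locus tag. Since its name differs from TAIR10, its fit was checked: 41.2% and 42.3% of the summits lay within 250 bp of a protein-coding gene end, against 21.9% to 23.6% after shifts of 2 to 10 kb. No coordinates of the table are printed. A gene had a peak when an interval overlapped its span, extended by 500 bp, by 1 bp or more; summits are the deposited start plus offset, written 1-based. The tallest peak is that with the highest fold enrichment. The overlap rules were tested on simulated peaks. Python 3.11.15, pandas 2.3.3 and scipy 1.17.1 were used.

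With 1 group of 2 lists no test was made; shares over all protein-coding genes are given as a description. The genes and lists were chosen with earlier results of these data known. All 10 genes are named; of the other lists, every receptor and transcription factor gene and the best ranked gene by summed rank are named, and others were named after their values were seen (HAI2). Gene ends replaced gene starts because the table has no strand. No sequence was used, so planned motif searches were not run.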

Additional observations from a re-analysis of the deposited data

How the results depend on the processing

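The 9 of 10 genes with a peak, and with a summit, in both lists stayed 9 with no extension or 1000 bp. Both counts were also 9 with a −log10 q limit of 5, without peaks of neighbouring genes and in either list alone (from 9 to 9). For peaks the count was also 9 with 100 bp of overlap. A limit of 10 on −log10 q left 5 with a peak and 5 with a summit, as fewer peaks remain. The share over all protein-coding genes, 52.1%, was 45.4% without extension, 57.1% with 1000 bp, 36.9% and 11.8% with −log10 q limits of 5 and 10, 51.0% with 100 bp of overlap, 40.8% without peaks of neighbouring genes, and 55.6% to 56.2% in one list alone. Genes with a peak over the low-coordinate end numbered 3, 1 with the limit of 10, and 3 to 4 in one list alone; over the high-coordinate end they stayed 2 under each alternative. The 31 other pathway genes with a peak in both lists became 28 without extension, 32 with 1000 bp and 25 without peaks of neighbouring genes. They stayed 31 with 100 bp of overlap. They numbered 18 and 10 with limits of 5 and 10, and 31 to 33 in one list alone.

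Chosen after the data were seen, ranking by −log10 q kept 9 inside summits and 3 genes in the top 10%; the top 5% held 2, and one list alone 3 to 4, ABI2 being the addition in replicate 1. No paired analysis was possible because only 1 group has lists. Unknown read depth limits what a missing peak at ABI4 can show, and the planned motif search was not run.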
